A study of Mus musculus with 9 samples.

Results

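The Polycomb gene set held 35 mouse genes. They were taken by symbol from the platform annotation as members of Polycomb repressive complexes 1 and 2 and their partners. They were grouped as 12 core genes of PRC1 (among them Bmi1), 9 genes of variant PRC1, 6 core genes of PRC2, 5 PRC2 accessory genes and 3 genes of the PR-DUB deubiquitinase. The array carried 76 probes for them, of which 47 passed the filter on detection, and 31 of the 35 genes could be tested, out of 9136 genes tested in all. The 4 others, Pcgf2, Ezh1, Jarid2 and Phf1, had no probe detected on any array.

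Polycomb proteins keep genes silent through histone marks. PRC1 carries a RING-type ubiquitin ligase, Ring1 or Rnf2, which attaches ubiquitin to histone H2A and pairs with a PCGF protein, of which Bmi1 is the best known in blood. Canonical PRC1 adds a CBX protein that reads methylated histone H3 and a polyhomeotic protein, whereas variant PRC1 carries Rybp or Yaf2. PRC2 methylates histone H3 through Ezh1 or Ezh2, and PR-DUB removes ubiquitin from H2A. In bone marrow Bmi1 is known for sustaining stem cell self-renewal, partly by silencing the Cdkn2a locus.

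Expression was measured on 9 Illumina mouse BeadChip arrays, on which a probe's brightness reports the amount of a transcript. All cells were bone marrow cells of C57/Bl6 mice enriched for c-kit, a receptor of blood progenitors, transduced with a retrovirus. Liquid culture lasted 10 days, with SCF (20 ng/µl) and the interleukins IL-3 and IL-6 (10 ng/µl each). The first group of 3 arrays carried MN1, a transcriptional coactivator that transforms bone marrow. The next group of 3 carried MN1-TEL, the leukemia fusion of MN1 with the ETS-family factor TEL, and the last group of 3 carried MN1-TEL del DBD, a deletion construct called del DBD hereafter, in which DBD is a common short form for DNA-binding domain. The series title concerns independence of MN1 leukemia from Bmi1. No group of untransduced cells was analysed here, and the labels name neither the promoter that drives the constructs nor whether replicates came from separate cultures. The spread that p-values rest on is therefore that of these arrays and may be technical.

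Kit was detected on all 9 arrays, with log2 intensities of 13.53 to 13.81 in MN1, 13.86 to 14.75 in MN1-TEL and 11.95 to 12.35 in del DBD. Flt3, another progenitor receptor, had no probe that passed the filter on detection. Between 14249 and 15273 probes were detected per array, at a detection p-value under 0.01; precision is limited by how few arrays there are. MN1-TEL replicate 2 stood apart: its correlations across genes with the other MN1-TEL arrays were 0.9752 and 0.9753, those of all other pairs within a group were 0.9898 or higher, and a weighted fit gave it a weight of 0.210 where the other 8 arrays had 0.813 to 2.07. Counts are therefore given with and without it.

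MN1-TEL against MN1 asked how the fusion differs from MN1 alone. Of 31 tested members, 18 passed the test (adjusted p under 0.05, limma), 4 higher and 14 lower in MN1-TEL, beside 54.7% of all genes tested (25.3% higher and 29.4% lower). The share among members was 58.1%, near that background. Bmi1, Rybp, Eed and Asxl1 were the 4 that rose. The members' median log2 difference was -0.27, where that of all genes was -0.06. Between del DBD and MN1, 9 members passed, 3 higher and 6 lower, beside 37.1% of all genes (18% higher and 19.1% lower), with a median difference of -0.14 (all genes -0.04). Between del DBD and MN1-TEL, 11 passed, 8 higher and 3 lower in del DBD, beside 29.4% of all genes (15% higher and 14.4% lower), with a median of 0.24 (all genes 0.02). Without MN1-TEL replicate 2 these counts were 18, 12 and 14. Leaving out single arrays gave 13 to 18 calls in MN1-TEL against MN1, 2 to 12 in del DBD against MN1 and 3 to 14 in del DBD against MN1-TEL, the fewest without MN1 replicate 1 or 3, MN1 replicate 1 and del DBD replicate 3, respectively. The groups did not overlap in 18, 15 and 16 members, where that held for 60.8%, 58.6% and 41.9% of all genes. The 3 comparisons share arrays and are not independent.

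The split of these calls into higher and lower moved with the scaling. When each array was scaled to the median of all its probes in place of quantile normalization, the median difference of all genes moved to 0.40, 0.34 and -0.07 in the 3 comparisons, and the split of higher to lower members became 11 to 2, 9 to 0 and 4 to 3. Of the members called, 6 of 18, 3 of 9 and 7 of 11 still passed. In MN1-TEL against MN1 the lower calls that remained were those of Rbbp4 and Mtf2. Among those lost, Phc1 went to -0.34 (adjusted p = 0.0575), Cbx2 to -0.47 (0.0645), Pcgf3 to -0.26 (0.135), Cbx8 to -0.19 (0.204), Yaf2 to -0.10 (0.641), Bap1 to -0.08 (0.564), and Pcgf5 and Asxl2 to -0.01 (0.970 or more). In del DBD against MN1 all 6 lower calls were lost, and in del DBD against MN1-TEL those of Cbx6 (0.0826), Pcgf1 (0.330), Pcgf5 (0.306) and Bap1 (0.178). Scaling to the median of the kept probes, added after the data were seen, gave medians of -0.17, -0.16 and 0.01 and splits of 4 to 16, 3 to 11 and 6 to 3. Relative to the median of all genes, the 18, 9 and 11 members called kept their sign under median scaling, a value that is the same for both sets of probes. Differences below are those of the quantile-normalized values.

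**Figure D1:**
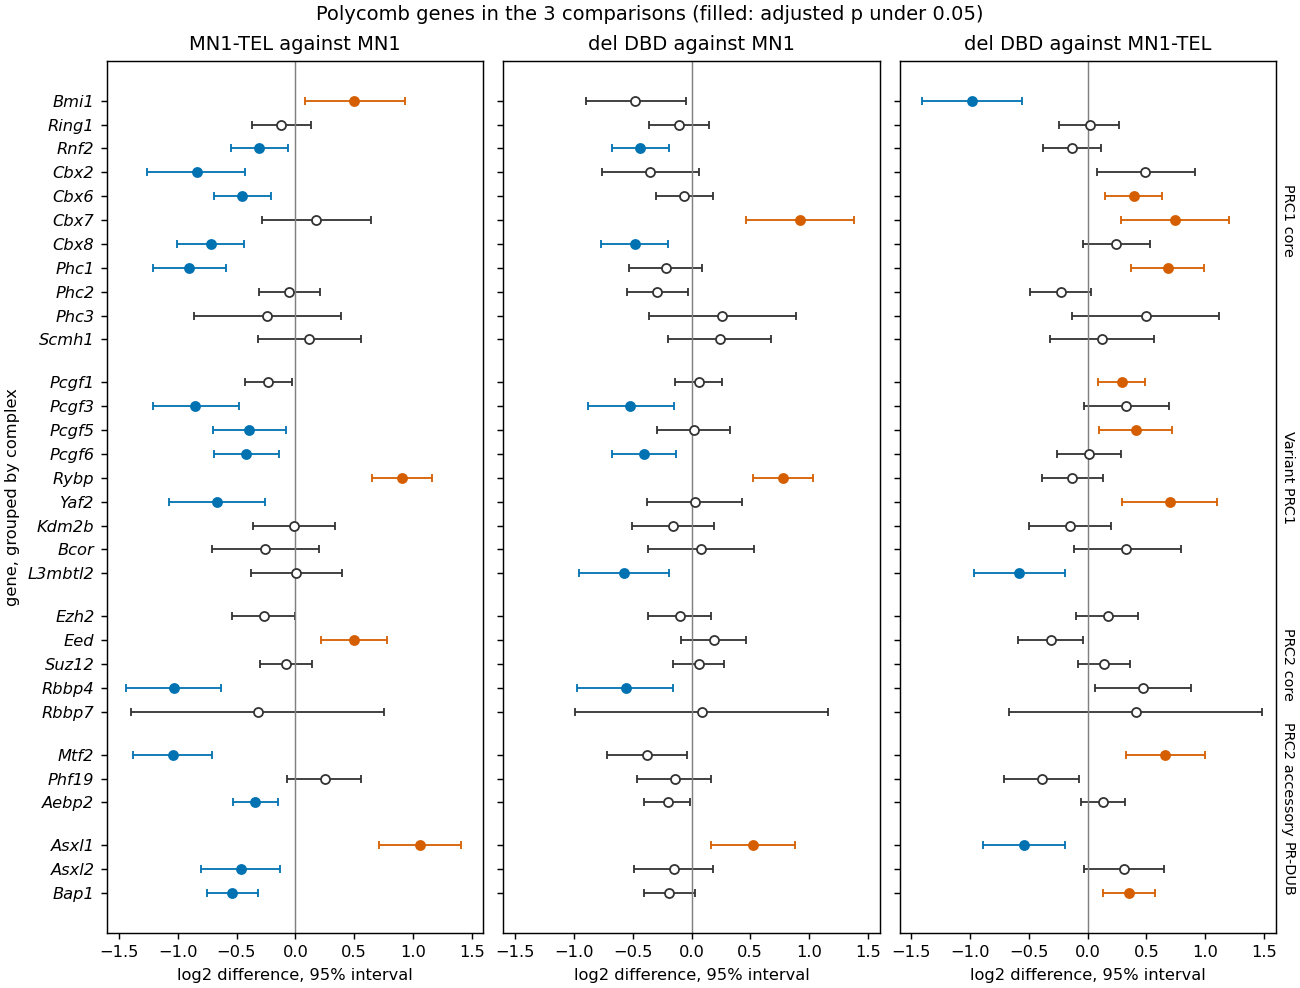
Log2 difference of each of the 31 tested Polycomb genes (x axis, with its 95% interval) in the 3 comparisons, grouped by complex. Filled points passed the test, with orange for higher and blue for lower, in 18, 9 and 11 genes. Rybp and Asxl1 lay to the right of 0 against MN1 in both other groups, and Bmi1 lay on opposite sides.

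Across all 3 comparisons 21 members passed at least once, where 63.9% of all genes tested did, and 10 passed in none: Ring1, Phc2, Phc3, Scmh1, Kdm2b, Bcor, Ezh2, Suz12, Rbbp7 and Phf19. Asxl1 was the single member that passed in all 3. Among the 18 members that differed between MN1-TEL and MN1, the del DBD mean lay between the other means in 14, against 73.9% of all genes called there. At least 2-fold differences were seen in Rbbp4, Mtf2 and Asxl1, all between MN1-TEL and MN1, where 20.4% of all genes were called and changed that much. No member reached that size in del DBD against MN1 (12.4% of all genes) or against MN1-TEL (9.27%). Alternatives to the processing numbered 21. The calls that passed in all 21 were those of Rybp, Eed, Rbbp4, Mtf2 and Asxl1 between MN1-TEL and MN1, Rybp between del DBD and MN1, and Bmi1, Phc1 and Mtf2 between del DBD and MN1-TEL. That of Cbx7 between del DBD and MN1 passed in the 20 in which it could be tested, since it was not detected on all 9 arrays. Of the members not called in the 3 comparisons, 6 of 13, 11 of 22 and 4 of 20 passed with the same sign in at least 1 alternative.

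By the quantile-normalized values, Bmi1 was highest in MN1-TEL and lowest in del DBD. Its single probe, detected on all 9 arrays, read 8.73, 8.44 and 8.48 (normalized log2 intensity) in MN1, 9.22, 8.63 and 9.32 in MN1-TEL, and 7.96, 8.30 and 7.96 in del DBD. Every del DBD array lay below every array of the other groups, while MN1-TEL replicate 2 lay below MN1 replicate 1. The fall from MN1-TEL to del DBD was 0.98 on the log2 scale, with del DBD 1.97-fold lower (SE 0.19, adjusted p = 0.0043), and over the alternatives its adjusted p ranged from 3.98e-04 to 0.0208. MN1-TEL exceeded MN1 by 0.50 (SE 0.19, adjusted p = 0.0461), with overlapping groups. That call was lost in 10 of 21 alternatives (adjusted p 0.0012 to 0.146 over all of them), among them leaving out any MN1 array, MN1-TEL replicate 1 or 3, or del DBD replicate 1 or 3 (0.0518 to 0.146). With adjustment over all kept probes in place of genes, the rise from MN1 to MN1-TEL did not pass (limma adjusted p = 0.0558). Without MN1-TEL replicate 2 the difference was 0.71 (SE 0.14, adjusted p = 0.0024). Between del DBD and MN1 the difference of -0.48 (SE 0.19) did not pass the test (adjusted p = 0.0751; 0.0142 to 0.863 over the alternatives), although those groups did not overlap, as in 58.6% of all genes. It passed without MN1-TEL replicate 2 (-0.47, adjusted p = 0.0142). Under scaling to the median of all probes, it was -0.29 relative to the median of all genes. That median was itself 0.34, so the del DBD mean was not below that of MN1 there. Pcgf2, the closest relative of Bmi1, was not detected on any array.

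**Figure D2:**
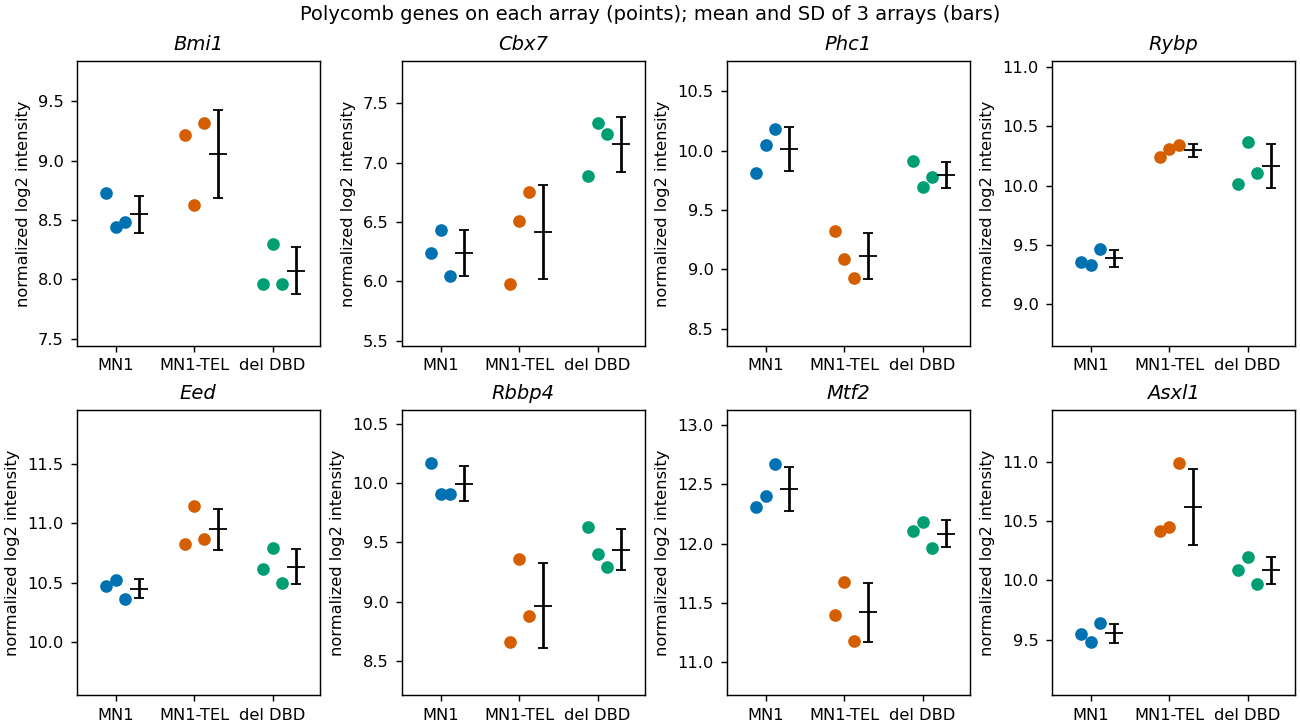
Normalized log2 intensity (y axis, a span of 2.4 in each panel) of Bmi1 and of the 7 other genes with a call that passed in every alternative that could be run, by construct group. Points are arrays, and bars give the mean and SD of 3 arrays. Bmi1 in MN1-TEL spans 8.63 to 9.32, and Phc1 and Mtf2 are lowest in MN1-TEL.

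The stretch before the start of Bmi1 is shown because it held the palindromic E-box letters CACGTG, bound by MYC-type factors. It is given with capitals for those letters, from RefSeq on GRCm38.p6, as the 250 bases before the annotated start, at chr2:18676768-18677017 on the plus strand.
Bmi1: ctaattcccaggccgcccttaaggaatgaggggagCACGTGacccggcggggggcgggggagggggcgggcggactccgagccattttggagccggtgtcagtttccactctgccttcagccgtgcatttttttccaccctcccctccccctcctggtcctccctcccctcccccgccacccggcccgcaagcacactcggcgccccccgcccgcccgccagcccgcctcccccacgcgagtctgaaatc
The letters CACGTG were found, on either strand, in 18.2% of 44 such windows of 31 members, in 6.02% of 32851 windows of all genes, and in 9.37% of the 12417 windows with at least 10 CpG dinucleotides, as 36 of the 44 member windows had. Other members with these letters were Pcgf2, Cbx6, Cbx8, Phc2, Phc3, Rbbp4 and Bap1. Of these, Cbx6, Cbx8, Rbbp4 and Bap1 were lower in MN1-TEL than in MN1, opposite to Bmi1.

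Of the PRC1 ubiquitin ligases, Rnf2 fell in both fusion groups and Ring1 did not pass in any comparison. Rnf2 read 7.11, 6.83 and 6.97 in MN1, 6.72, 6.61 and 6.66 in MN1-TEL, and 6.63, 6.56 and 6.41 in del DBD. All MN1 arrays lay above the rest, and the gap was small. The differences from MN1 were -0.31 (SE 0.11, adjusted p = 0.0377) and -0.44 (SE 0.11, adjusted p = 0.0120). The first was lost in 12 of 21 alternatives and reversed in 1. It was lost without MN1 replicate 1 or 3, any MN1-TEL array or del DBD replicate 2 (adjusted p 0.0518 to 0.137). It was also lost with no background correction (0.150), an offset of 50 (0.0623), no detection filter (0.0588), array weights (0.0788), a variance trend (0.161) or only the 2 groups fitted (0.0637). The second was lost without MN1 replicate 1 or del DBD replicate 3 (0.0518 to 0.0544), with no background correction (0.0707) and with a variance trend (0.0693). Ring1 stayed between 9.97 and 10.31 on all arrays, with differences of -0.12, -0.11 and 0.02, and intervals of -0.37 to 0.13, -0.36 to 0.15 and -0.24 to 0.27.

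The chromobox genes, which encode the readers of methylated histone H3 in canonical PRC1, did not move together. Cbx8 and Cbx6 fell in MN1-TEL, and Cbx7 rose in del DBD. Cbx8 read 7.95, 7.83 and 7.98 in MN1, 7.17, 7.31 and 7.10 in MN1-TEL, and 7.35, 7.28 and 7.68 in del DBD. MN1 lay above both other groups, which overlapped each other. Cbx8 was 1.65-fold lower in MN1-TEL (-0.72, SE 0.13, adjusted p = 0.0011) and 1.40-fold lower in del DBD (-0.48, SE 0.13, adjusted p = 0.0157) than in MN1. The second call was lost without MN1 replicate 1 or 3, or del DBD replicate 1 or 2 (adjusted p 0.0539 to 0.0641). Cbx6 read 9.22, 9.08 and 9.06 in MN1, 8.57, 8.82 and 8.61 in MN1-TEL, and 9.15, 9.0 and 9.03 in del DBD. The MN1-TEL arrays lay below the rest, and MN1 and del DBD overlapped. MN1-TEL differed by -0.45 from MN1 (SE 0.11, adjusted p = 0.0056) and del DBD by 0.39 from MN1-TEL (SE 0.11, adjusted p = 0.0215). The latter was lost without MN1-TEL replicate 1 or 3, or del DBD replicate 1 or 3 (0.0549 to 0.0744).

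Cbx7 followed another order, with its highest values in del DBD. It read 6.24, 6.43 and 6.04 in MN1, where 1 of 3 arrays detected it, 5.98, 6.51 and 6.75 in MN1-TEL, and 6.89, 7.33 and 7.24 in del DBD. The del DBD arrays lay above all others, and MN1 and MN1-TEL overlapped. Cbx7 was 1.89-fold higher in del DBD than in MN1 (0.92, SE 0.21, adjusted p = 0.0073; 7.08e-04 to 0.0321 over the alternatives) and 1.67-fold higher than in MN1-TEL (0.74, SE 0.21, adjusted p = 0.0239). The second call was lost without MN1-TEL replicate 1 or del DBD replicate 2 or 3 (0.0585 to 0.0843). Cbx2 was near background. It read 6.12, 6.39 and 6.49 in MN1, 5.73, 5.08 and 5.66 in MN1-TEL, and 5.85, 5.96 and 6.14 in del DBD, and was detected on 2, 0 and 1 arrays. MN1 was at least 1.21-fold above MN1-TEL (adjusted p = 0.0038), where Cbx2 had only a bound. Such a bound takes, on each dim array, the higher of the lowest signal among detected probes and the probe's own signal.

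Among the polyhomeotic genes, which encode the polymerizing subunits of canonical PRC1, Phc1 was low in MN1-TEL. Phc1 read 9.81, 10.05 and 10.18 in MN1, 9.32, 9.09 and 8.93 in MN1-TEL, and 9.91, 9.69 and 9.78 in del DBD. The MN1-TEL arrays lay below the rest, and MN1 and del DBD overlapped. Phc1 was 1.86-fold lower in MN1-TEL than in MN1 (-0.90, SE 0.14, adjusted p = 5.11e-04) and 1.6-fold higher in del DBD than in MN1-TEL (0.68, SE 0.14, adjusted p = 0.0058; 0.0026 to 0.0458 over the alternatives). Its other kept probe differed by -0.61 (SE 0.20, adjusted p over probes = 0.0331) and 0.28 (adjusted p over probes = 0.367). Phc2, Phc3 and Scmh1, a further PRC1 subunit, did not pass, with differences of -0.29 to 0.50 over the 3 comparisons. Phc3 was detected on 7 of 9 arrays.

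Of 9 variant PRC1 genes, all tested, 1 rose and 4 fell in MN1-TEL against MN1, 1 rose and 3 fell in del DBD against MN1, and 3 rose and 1 fell in del DBD against MN1-TEL. These are 55.6%, 44.4% and 44.4% of the 9, beside 54.7%, 37.1% and 29.4% of all genes. Rybp, which links variant PRC1 to ubiquitinated histone H2A, rose in both fusion groups, and its relative Yaf2 fell in MN1-TEL. Rybp read 9.36, 9.33 and 9.47 in MN1, 10.24, 10.31 and 10.34 in MN1-TEL, and 10.01, 10.37 and 10.11 in del DBD. MN1 lay below both other groups, and these overlapped. Rybp was 1.88-fold higher in MN1-TEL (0.91, SE 0.11, adjusted p = 1.39e-04) and 1.71-fold higher in del DBD (0.78, SE 0.11, adjusted p = 6.95e-04) than in MN1, and the interval of the difference between the fusion groups was -0.39 to 0.13. Yaf2 read 9.95, 9.93 and 9.86 in MN1, 9.07, 9.68 and 8.99 in MN1-TEL, and 10.05, 9.73 and 10.04 in del DBD. Its MN1-TEL arrays were the lowest, with replicate 2 close to the others. Yaf2 differed by -0.67 between MN1-TEL and MN1 (SE 0.18, adjusted p = 0.0112) and by 0.70 between del DBD and MN1-TEL (SE 0.18, adjusted p = 0.0178). The latter was lost without MN1-TEL replicate 1 or 3, or del DBD replicate 1 or 3 (0.0558 to 0.0659).

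The 4 PCGF genes of variant PRC1, which set the identity of each complex, were lower in MN1-TEL than in MN1 on average, and Pcgf3, Pcgf5 and Pcgf6 passed. Pcgf3 read 8.78, 8.79 and 8.74 in MN1, 7.72, 8.34 and 7.72 in MN1-TEL, and 8.27, 8.18 and 8.32 in del DBD. MN1 stood above both other groups, which overlapped through MN1-TEL replicate 2. The differences from MN1 were -0.85 (SE 0.16, adjusted p = 0.0017) and -0.52 (SE 0.16, adjusted p = 0.0321). The second was lost without any of the MN1 or del DBD arrays (0.0676 to 0.0982). Pcgf6 read 10.96, 10.91 and 10.82 in MN1, 10.25, 10.56 and 10.64 in MN1-TEL, and 10.48, 10.58 and 10.41 in del DBD. Both fusion groups lay below MN1. The differences were -0.42 (SE 0.12, adjusted p = 0.0160) and -0.40 (SE 0.12, adjusted p = 0.0273). The first was lost without MN1 replicate 1 (0.0582; 0.0081 to 0.612 over the alternatives), and the second without any MN1 array or del DBD replicate 1 or 3 (0.0503 to 0.0937).

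Pcgf5 and Pcgf1 had their lowest values in MN1-TEL. Pcgf5 read 12.27, 12.30 and 12.23 in MN1, 11.58, 12.10 and 11.94 in MN1-TEL, and 12.28, 12.41 and 12.17 in del DBD. The MN1-TEL arrays were below the others by a narrow gap. Pcgf5 differed by -0.39 between MN1-TEL and MN1 (SE 0.14, adjusted p = 0.0371) and by 0.41 between del DBD and MN1-TEL (SE 0.14, adjusted p = 0.0496). The first was lost without any MN1 array, MN1-TEL replicate 1 or 3, or del DBD replicate 1 (0.0521 to 0.105), and the second without any array except MN1-TEL replicate 2 (0.0717 to 0.152). Pcgf1, the PCGF protein of the complex with Kdm2b and Bcor, read 10.61, 10.65 and 10.58 in MN1, 10.33, 10.45 and 10.37 in MN1-TEL, and 10.67, 10.63 and 10.72 in del DBD. It was 0.29 higher in del DBD than in MN1-TEL (SE 0.09, adjusted p = 0.0366), a call lost without any array except MN1-TEL replicate 2 (0.0559 to 0.114). Its difference of -0.23 between MN1-TEL and MN1 did not pass (adjusted p = 0.0529).

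L3mbtl2, a partner of Pcgf6, was low in del DBD. It read 9.40, 9.36 and 9.15 in MN1, 9.25, 9.09 and 9.60 in MN1-TEL, and 9.04, 8.54 and 8.61 in del DBD. The del DBD arrays lay below all others, and MN1 and MN1-TEL overlapped. L3mbtl2 differed by -0.57 from MN1 (SE 0.17, adjusted p = 0.0274) and by -0.58 from MN1-TEL (SE 0.17, adjusted p = 0.0311). These calls were lost without MN1 replicate 1 or 2 or del DBD replicate 2 or 3 (0.0846 to 0.1), and without MN1-TEL replicate 1 or 3 or del DBD replicate 2 or 3 (0.0572 to 0.109). Kdm2b, which brings variant PRC1 to unmethylated CpG, and Bcor did not pass, with differences of -0.26 to 0.33. Bcor read 9.96 in MN1-TEL replicate 2 and 10.64 to 10.94 on the other 8 arrays, and without that array its difference between MN1-TEL and MN1 went from -0.26 to 0.01.

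Of the 5 tested core genes of PRC2, Ezh2, the methyltransferase, and Suz12, the scaffold, did not pass in any comparison. Suz12 ranged from 13.34 to 13.68 over all arrays, with differences of -0.08, 0.06 and 0.14, and Ezh2 from 11.56 to 12.15, with differences of -0.27, -0.10 and 0.17. The interval for Ezh2 between MN1-TEL and MN1 was -0.54 to 0.00 (adjusted p = 0.0841), and that call passed in 4 of 21 alternatives. In the same comparison Suz12 passed in 1 of 21, with scaling to the median of the kept probes (adjusted p = 0.0266). Ezh1, the other methyltransferase, was not detected. Eed, which reads the mark that PRC2 writes, rose in MN1-TEL. It read 10.47, 10.52 and 10.36 in MN1, 10.83, 11.15 and 10.87 in MN1-TEL, and 10.62, 10.79 and 10.50 in del DBD. MN1-TEL lay above both other groups, and MN1 and del DBD overlapped. Eed was 1.41-fold higher in MN1-TEL than in MN1 (0.50, SE 0.12, adjusted p = 0.0071; 2.20e-04 to 0.0310 over the alternatives).

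The histone-binding subunits Rbbp4 and Rbbp7, which also belong to other chromatin complexes, were each measured by several probes. Rbbp4 read 10.17, 9.91 and 9.91 in MN1, 8.66, 9.36 and 8.88 in MN1-TEL, and 9.63, 9.40 and 9.29 in del DBD by its brightest probe. MN1 lay above both fusion groups, and these overlapped. Rbbp4 was 2.05-fold lower in MN1-TEL (-1.03, SE 0.18, adjusted p = 0.0011) and 1.48-fold lower in del DBD (-0.56, SE 0.18, adjusted p = 0.0360) than in MN1. Over the alternatives the first difference ran from -1.21 to -0.46 (adjusted p 1.15e-04 to 0.0477). The second call was lost with the mean of its probes (0.105), and without any MN1 array or del DBD replicate 2 or 3 (0.0659 to 0.124; 0.0035 to 0.698 over the alternatives). Another Rbbp4 probe gave -1.12 and -0.54, but the last gave 0.31 and 0.30, neither of which passed (adjusted p over probes = 0.0775 and 0.112). The Rbbp4 probes thus disagreed in direction. Rbbp7 did not pass, and 3 of its 4 kept probes read lowest in MN1-TEL replicate 2. The brightest gave 9.41 there and 10.72 to 11.55 on the other 8 arrays. Without that array its difference between MN1-TEL and MN1 went from -0.32 (SE 0.48) to 0.35 (SE 0.21, adjusted p = 0.178).

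Mtf2, a Polycomb-like protein that brings PRC2 to CpG-rich DNA, fell in MN1-TEL about as much as Rbbp4. It read 12.31, 12.40 and 12.67 in MN1, 11.40, 11.68 and 11.18 in MN1-TEL, and 12.11, 12.18 and 11.96 in del DBD. The 3 groups did not overlap, with del DBD between the others, close to MN1. Mtf2 was 2.06-fold lower in MN1-TEL than in MN1 (-1.04, SE 0.15, adjusted p = 3.22e-04; 1.96e-05 to 0.0048 over the alternatives) and 1.58-fold higher in del DBD than in MN1-TEL (0.66, SE 0.15, adjusted p = 0.0095; 0.0019 to 0.0405). The difference of -0.38 between del DBD and MN1 did not pass (adjusted p = 0.0735), but did in 6 of 21 alternatives, among them leaving out MN1-TEL replicate 2 (adjusted p = 0.0310; 0.0150 to 0.438 over the alternatives). The 2 other Mtf2 probes gave -1.0 and -1.04 between MN1-TEL and MN1, and 0.67 and 0.75 between del DBD and MN1-TEL, all passing over probes. Aebp2, a zinc-finger cofactor of PRC2, read 12.15, 12.14 and 12.22 in MN1, 11.81, 11.86 and 11.84 in MN1-TEL, and 11.98, 11.93 and 11.99 in del DBD. These groups did not overlap either, on a narrower scale. Its difference of -0.34 between MN1-TEL and MN1 passed (SE 0.09, adjusted p = 0.0082), but not with the mean of its 3 probes (0.101; 0.0021 to 0.780 over the alternatives). Phf19, a relative of Mtf2, did not pass, with differences of 0.25, -0.14 and -0.39.

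In PR-DUB, the cofactor Asxl1 rose in MN1-TEL while the catalytic subunit Bap1 and the cofactor Asxl2 fell. Asxl1 read 9.55, 9.48 and 9.64 in MN1, 10.42, 10.45 and 10.99 in MN1-TEL, and 10.09, 10.20 and 9.97 in del DBD. The 3 groups did not overlap, with del DBD between the others. Asxl1 was 2.09-fold higher in MN1-TEL (1.06, SE 0.16, adjusted p = 3.80e-04) and 1.44-fold higher in del DBD (0.52, SE 0.16, adjusted p = 0.0271) than in MN1, and del DBD lay 0.54 below MN1-TEL (-0.54, SE 0.16, adjusted p = 0.0289). The second call was lost without any MN1 array or del DBD replicate 1 or 2 (0.0511 to 0.0929). The third was lost without del DBD replicate 1 or 3 (0.0694 to 0.103) and with the mean of its probes (0.322; 0.0113 to 0.322 over the alternatives). The 2 other Asxl1 probes rose against MN1 too, by 0.42 and 0.94 in MN1-TEL and by 0.51 and 0.81 in del DBD, but their differences between del DBD and MN1-TEL were 0.09 and -0.12 and did not pass.

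Bap1 read 11.30, 11.31 and 11.33 in MN1, 10.83, 10.67 and 10.83 in MN1-TEL, and 11.02, 11.19 and 11.16 in del DBD. Its groups did not overlap, with del DBD nearer to MN1. Bap1 differed by -0.54 between MN1-TEL and MN1 (SE 0.10, adjusted p = 0.0012) and by 0.35 between del DBD and MN1-TEL (SE 0.10, adjusted p = 0.0224). The second was lost without del DBD replicate 2 or 3 (0.0757 to 0.0805). Asxl2 read 7.02, 6.98 and 7.18 in MN1, 6.57, 6.42 and 6.79 in MN1-TEL, and 6.64, 7.14 and 6.93 in del DBD. MN1-TEL lay below MN1, and del DBD overlapped both. Asxl2 differed by -0.46 between MN1-TEL and MN1 (SE 0.15, adjusted p = 0.0256). It did not pass with replicate 1 or 3 of MN1 left out, nor without replicate 1 or 2 of MN1-TEL (0.0544 to 0.0866). It was lost too with no background correction (0.0635), a variance trend (0.0604) and array weights (0.0501).

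The stretches before the starts of Asxl1 and Asxl2 are shown because both held the letters CCGGAAG, the type of site that ETS-family proteins such as TEL bind, in genes that went opposite ways in MN1-TEL. They are the 250 bases before each start on the plus strand of GRCm38.p6, from RefSeq, at chr2:153345580-153345829 and chr12:3426607-3426856. Capitals mark CCGGAAG or its reverse complement CTTCCGG and, nearer the left end of Asxl1, the E2F-type letters TTCCCGC.
Asxl1: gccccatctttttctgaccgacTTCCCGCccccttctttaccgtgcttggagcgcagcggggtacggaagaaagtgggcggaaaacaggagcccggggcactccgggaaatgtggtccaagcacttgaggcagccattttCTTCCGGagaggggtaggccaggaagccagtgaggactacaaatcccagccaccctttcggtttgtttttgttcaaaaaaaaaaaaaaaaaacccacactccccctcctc
Asxl2: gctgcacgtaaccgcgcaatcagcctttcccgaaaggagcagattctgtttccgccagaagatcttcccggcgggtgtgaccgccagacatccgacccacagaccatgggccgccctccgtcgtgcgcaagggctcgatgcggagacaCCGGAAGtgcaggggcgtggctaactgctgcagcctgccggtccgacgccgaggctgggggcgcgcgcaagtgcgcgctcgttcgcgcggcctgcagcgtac
Apart from these genes, Phc2, which did not pass in any comparison, held CCGGAAG. The letters were found on either strand in 6.82% of the 44 member windows, in 6.91% of all 32851 windows, and in 14.4% of those with at least 10 CpG. A match of letters is a description of the window, not a binding site.

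**Figure D3:**
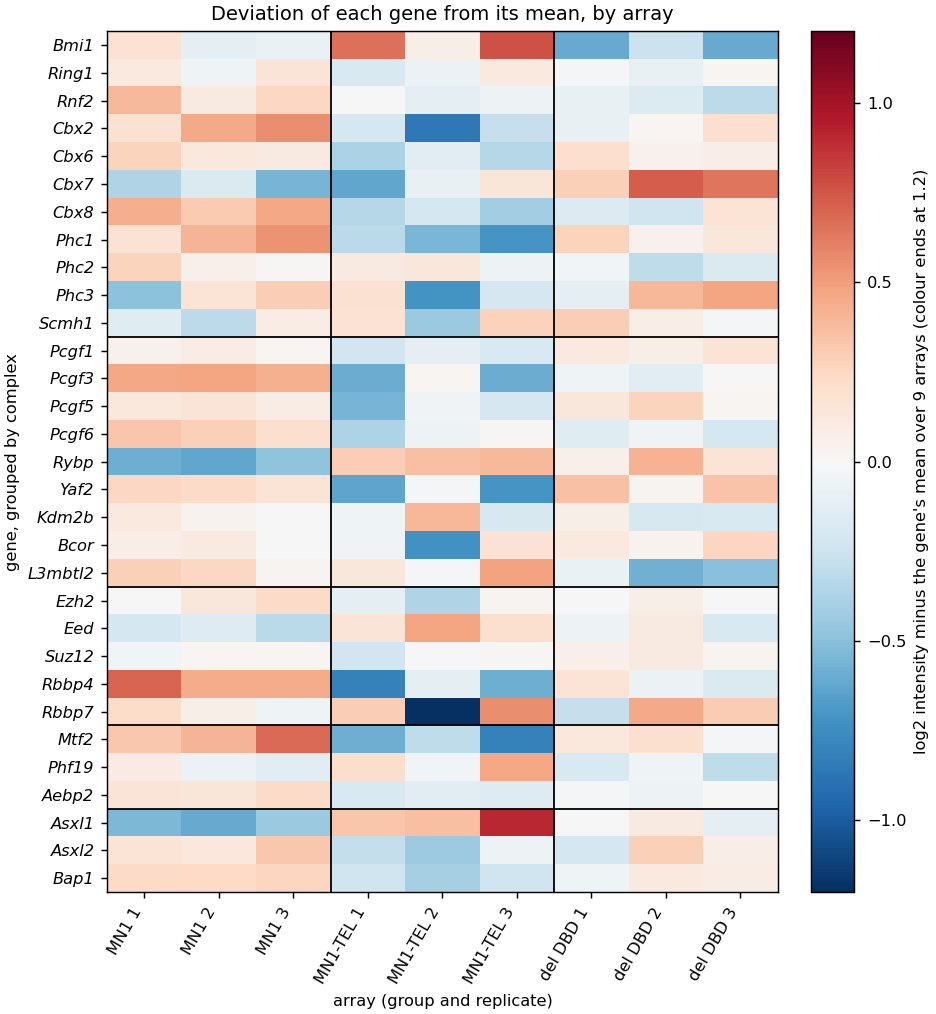
Normalized log2 intensity of the 31 tested genes minus each gene's mean over the 9 arrays (colour, red above and blue below), with arrays in columns and genes in rows grouped by complex. Rbbp7 in MN1-TEL replicate 2 lies beyond the end of the scale, and Bcor, Phc3 and Cbx2 are also lowest on that array.

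By the order of group means, 13 of 31 members were highest in MN1 and lowest in MN1-TEL, which was the order of 29.8% of all genes. A further 7 were highest in del DBD and lowest in MN1-TEL, against 10.4% of all genes. The order of Bmi1, with MN1-TEL highest and del DBD lowest, was shared by L3mbtl2 and Phf19 and by 10.2% of all genes. For many members neighbouring means differ by less than the spread of the arrays. Within groups, each array was set against the mean of its group's other arrays. The median absolute deviation of members was then 0.06 to 0.13 over the MN1 arrays and 0.15 on each del DBD array. It was 0.21 to 0.30 over the MN1-TEL arrays, the highest on replicate 2. Over all genes these values were 0.11 to 0.12, 0.13 to 0.14 and 0.19 to 0.27.

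Every kept probe was also tested on its own, with adjustment over 15870 probes. Of 47 member probes, 23 passed in MN1-TEL against MN1, 12 in del DBD against MN1 and 12 in del DBD against MN1-TEL, beside 48.8%, 31.4% and 23.4% of all probes. In the 10 genes with more than 1 kept probe, 14 of 16 further probes had the sign of their gene's brightest probe in MN1-TEL against MN1, 12 in del DBD against MN1 and 11 in del DBD against MN1-TEL.

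**Figure D4:**
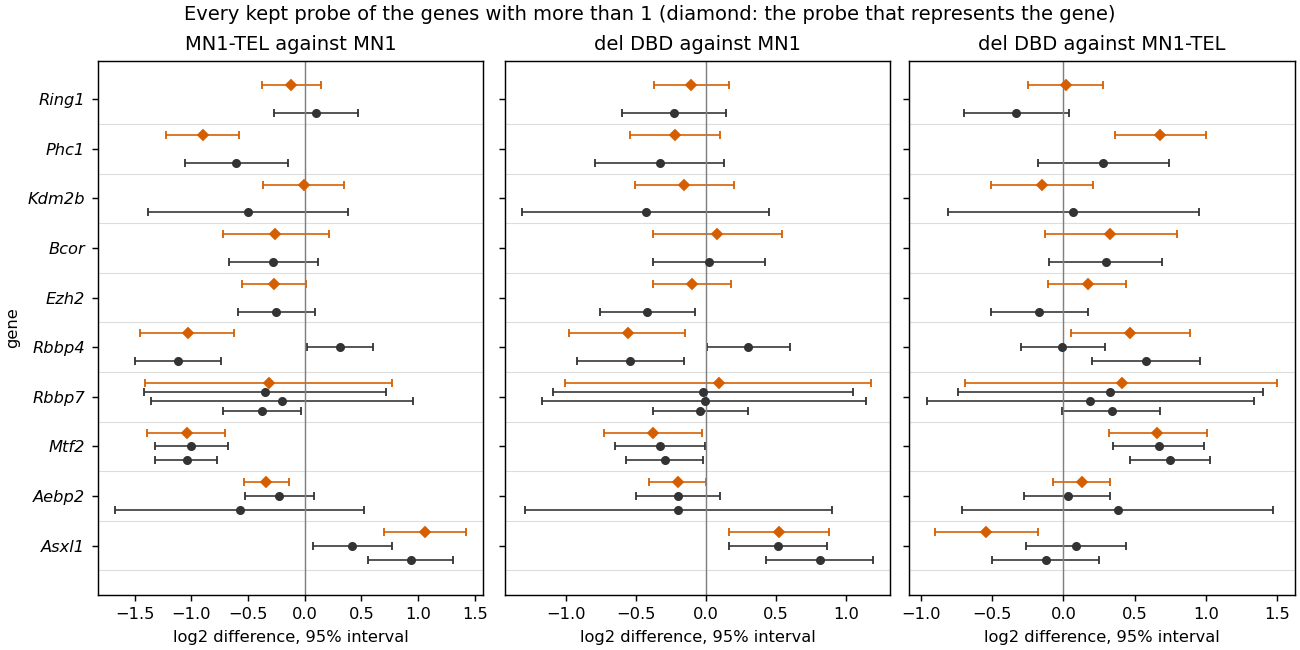
Log2 difference with its 95% interval (x axis) for every kept probe of the 10 genes with more than 1, in the 3 comparisons. Diamonds are the probes that represent the genes. The 3 Mtf2 probes lie together at -1.0 to -1.04 in MN1-TEL against MN1, while those of Rbbp4 run from -1.12 to 0.31.

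Of 36 other genes of the Polycomb pathway listed, 25 were tested. In MN1-TEL against MN1, 5 rose and 5 fell, in del DBD against MN1 2 rose and 2 fell, and in del DBD against MN1-TEL 2 rose and 2 fell. The shares called, 40%, 16% and 16%, were below the 54.7%, 37.1% and 29.4% of all genes. Auts2, a partner of PRC1 with Pcgf3 or Pcgf5, had the largest change: it read 10.64, 10.83 and 10.96 in MN1, 6.29, 6.50 and 6.21 in MN1-TEL, and 7.25, 6.94 and 6.36 in del DBD. MN1 was far above both fusion groups, which overlapped. The differences were -4.47 (SE 0.21, adjusted p = 2.58e-07) and -3.96 (SE 0.21, adjusted p = 1.02e-06). Ehmt1, a histone methyltransferase found with Pcgf6, fell by 1.15 in del DBD against MN1 (SE 0.23, adjusted p = 0.0043). It was not detected on any MN1-TEL array, where MN1 was at least 2.81-fold higher (adjusted p = 6.39e-05). Usp16, which removes ubiquitin from histone H2A, rose by 0.73 in MN1-TEL (SE 0.11, adjusted p = 3.57e-04). Kdm6b, which removes the mark of PRC2, fell by 0.80 there (SE 0.12, adjusted p = 4.33e-04), and its levels in del DBD, 9.59 to 9.69, overlapped those of MN1, 9.53 to 9.67. The Kdm6b call was lost under scaling to the median of all probes (adjusted p = 0.161; 2.14e-05 to 0.161 over the alternatives). Lcor rose by 0.48 (adjusted p = 0.0211) and Foxk1, a partner of Bap1, by 0.95 (adjusted p = 0.0231) in del DBD against MN1. Sfmbt1, an MBT-domain protein, fell by 0.97 in del DBD against MN1-TEL (adjusted p = 0.0019). Mean log2 intensities in MN1, MN1-TEL and del DBD were 6.39, 7.07 and 6.88 for Lcor and 6.39, 7.51 and 7.34 for Foxk1. For Sfmbt1 they were 8.14, 9.05 and 8.09, so MN1 and del DBD were close. In that comparison of del DBD with MN1, the Lcor call was lost without MN1 replicate 1 or 2 or del DBD replicate 2 or 3, and that of Foxk1 without MN1 replicate 2 or 3 or del DBD replicate 1 or 3, with highest adjusted p over the alternatives of 0.186 and 0.0781.

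A list of 22 genes known as Polycomb targets, mostly from other tissues, had 14 tested. In MN1-TEL against MN1, 1 rose and 6 fell, in del DBD against MN1 3 rose and 5 fell, and in del DBD against MN1-TEL 6 rose and 4 fell. The shares called were 50%, 57.1% and 71.4%, beside 54.7%, 37.1% and 29.4% of all genes. The list was chosen with earlier results of these data known, so these shares cannot tell whether Polycomb targets changed as a class. The Hoxa genes, which encode homeodomain factors of progenitors, were low in MN1-TEL. Hoxa9 read 8.18, 8.53 and 8.25 in MN1, 5.13, 4.94 and 5.0 in MN1-TEL, where no array detected it, and 7.97, 8.64 and 8.90 in del DBD, so MN1 was at least 4.80-fold (adjusted p = 1.90e-06) and del DBD at least 5.44-fold (adjusted p = 9.29e-06) above MN1-TEL. Hoxa5 fell by 2.83 in MN1-TEL against MN1 (SE 0.20), and Hoxa7 fell by 3.11 (SE 0.21). In del DBD, Hoxa5 was 1.28 (adjusted p = 9.39e-04) and Hoxa7 0.72 (adjusted p = 0.0239) higher than in MN1, and the latter was lost without MN1 replicate 2 or 3 or any del DBD array (up to 0.0814). Hoxa11 was detected in MN1 alone and was there at least 2.99-fold above MN1-TEL and 3.10-fold above del DBD. Igf2bp3, an RNA-binding protein of fetal progenitors, fell by 2.52 in MN1-TEL and fell by 1.38 in del DBD against MN1 (SE 0.15 for both). Gata3 was detected on no MN1 array and was at least 2.53-fold higher in MN1-TEL (adjusted p = 1.14e-04).

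At the Cdkn2a locus, the classical target of Bmi1, Cdkn2a did not pass and Cdkn2b was lowest in MN1-TEL. Cdkn2a, which encodes an inhibitor of cyclin-dependent kinases and an activator of p53, was near background: it read 6.11, 6.09 and 6.15 in MN1, 7.87, 6.31 and 5.43 in MN1-TEL, and 7.58, 5.90 and 6.59 in del DBD, and was detected on 1, 2 and 2 arrays. Its groups overlapped, and no comparison passed (adjusted p = 0.563, 0.472 and 0.869, with intervals of -0.88 to 1.71, -0.72 to 1.87 and -1.14 to 1.45). Cdkn2b, the neighbouring kinase inhibitor gene, read 10.21, 10.28 and 10.22 in MN1, 8.28, 8.64 and 7.53 in MN1-TEL, and 9.92, 9.27 and 9.71 in del DBD. The MN1-TEL arrays were the lowest. Cdkn2b fell by 2.09 in MN1-TEL against MN1 (SE 0.26, adjusted p = 1.41e-04) and was 1.48 higher in del DBD than in MN1-TEL (SE 0.26, adjusted p = 0.0027). Cdkn1a, another such inhibitor, did not pass, with differences of 0.27, 0.14 and -0.12.

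**Figure D5:**
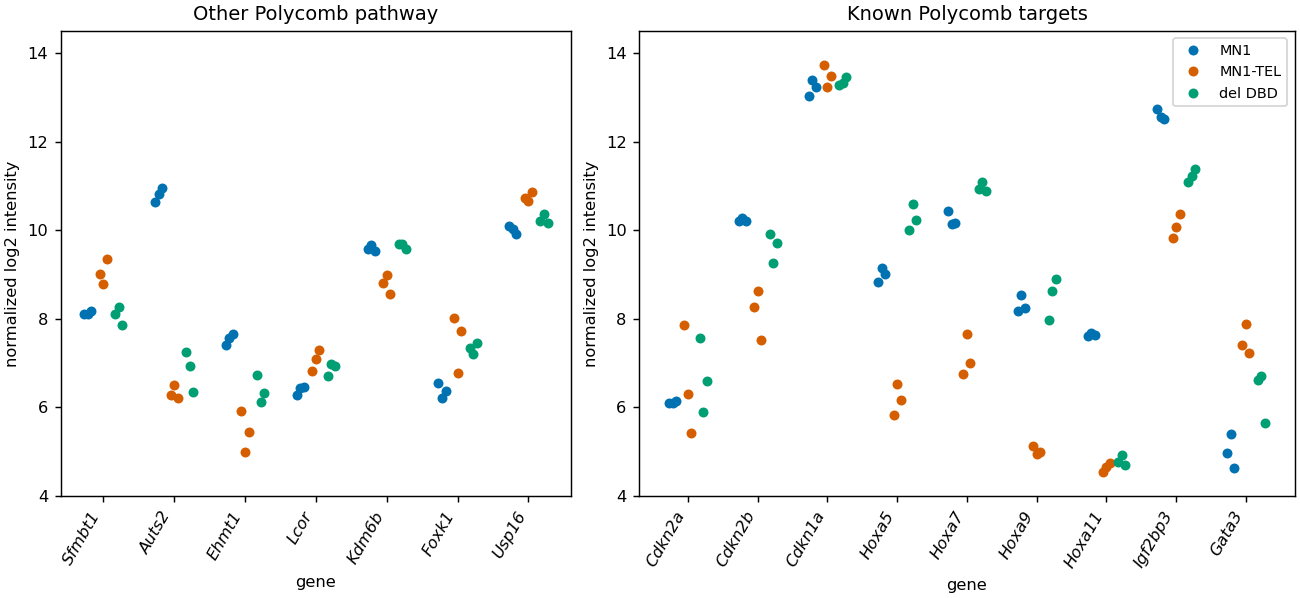
Normalized log2 intensity (y axis) on each array for the named genes of the other Polycomb pathway list (left) and of known Polycomb targets (right), coloured by construct. Auts2 and Hoxa11 are high in MN1 alone, Hoxa5, Hoxa7 and Hoxa9 are low in MN1-TEL alone, and the 3 groups overlap for Cdkn2a and Cdkn1a.

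Markers of mature cells moved with the constructs. Of 13 measured markers of mature neutrophils 12 were higher in MN1-TEL and 11 in del DBD than in MN1, and their summed intensity was 7747 to 8948 in MN1, 126510 to 140194 in MN1-TEL and 94313 to 100674 in del DBD. Ltf and Ngp, defining granule genes, were detected on no MN1 array and on all 6 others. Of 9 monocyte and macrophage markers 7 were higher and 2 lower in MN1-TEL than in MN1. Between del DBD and MN1, 6 were higher and 2 lower. The 2 lower in both were Ccr2 and F13a1, which no MN1-TEL array detected. Sums were 4665 to 5958 in MN1, 42171 to 49979 in MN1-TEL and 20338 to 25519 in del DBD. Lyz2 weighs most in the MN1-TEL sums, at log2 intensities of 14.72 to 15.13. Of the neutrophil markers 92.3% and 84.6% passed against MN1, and of the monocyte markers 100% and 88.9%, beside 54.7% and 37.1% of all genes. Of 24 proliferation genes 3 were higher and 6 lower in MN1-TEL than in MN1. In del DBD 2 were higher and 3 lower than in MN1, and 1 was higher than in MN1-TEL. The shares called were 37.5%, 20.8% and 4.17%, below the 54.7%, 37.1% and 29.4% of all genes. Their summed intensity was 116702 to 120840 in MN1, 99313 to 113191 in MN1-TEL and 108618 to 118422 in del DBD. The part of these markers in the Polycomb results was not tested. In bulk RNA, fewer cells of a type and less RNA per cell cannot be told apart.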

How the data were processed

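RNA of 3 constructs was measured on 3 arrays each, grouped by the titles in the labels. Arrays were read with GenomeStudio 2010.3, per the submitters' processing notes. The authors deposited intensity values for 45281 probes on a linear scale, not normalized as judged from the values, each with a detection p-value per the file headers. A deposited table of normalized intensity values was used as an alternative. A deposited table of group means was not used. The neqc function (limma 3.58.1, R 4.3.3) corrected the background from inferred negative controls, added an offset of 16, normalized by quantiles and took log2. The 15870 probes detected (p under 0.01) on 3 or more arrays were kept, and a gene was represented by its brightest kept probe. Probes were named from the platform annotation: 34885 had 1 symbol, 18 several and 10378 none. The Entrez identifier of 34807 was found in the RefSeq gene table. All 9 arrays entered 1 limma fit with 3 groups, and p-values of two-sided moderated tests were adjusted by Benjamini-Hochberg over 9136 genes or 15870 probes (threshold 0.05). No batch, slide or scan could be read from the labels or headers. For the named genes, members that passed at least 1 comparison, and Bmi1, are given on every array. Of the other Polycomb lists, the 4 (at most) lowest adjusted p of each list in each comparison decided the names, with Cdkn2a, Cdkn2b, Cdkn1a and Hoxa9. The marker lists were proliferation, progenitor, mature neutrophil, monocyte and macrophage, mast cell and basophil, erythroid, megakaryocyte, B lymphoid, T and NK lymphoid, and stroma and endothelium. The members and lists were chosen with earlier results of these data known. The fit was checked on simulated arrays. Promoter windows came from a RefSeq table on GRCm38.p6, in which 31 of the 35 members were matched, and 4 motifs were searched.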

Additional observations from a re-analysis of the deposited data

How the results depend on the processing

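Of 18 members called between MN1-TEL and MN1, 5 passed in every alternative run for them, as did 2 of 9 between del DBD and MN1 and 3 of 11 between del DBD and MN1-TEL. For Cbx7, which is among the 2, that is 20 of the 21, because it could not be tested where detection on all 9 arrays was required. Besides Rnf2, a fit of only the 2 groups lost Bmi1 (adjusted p = 0.0726, and adjusted p likewise in the parentheses that follow) and Pcgf5 (0.0671) in MN1-TEL against MN1, and Bap1 (0.0746), Cbx6 (0.0609), L3mbtl2 (0.0671), Pcgf1 (0.105), Pcgf5 (0.111) and Asxl1 (0.0702) in del DBD against MN1-TEL. Without the detection filter, again besides Rnf2, Bmi1 (0.0744) and Pcgf5 (0.0591), then Pcgf3 (0.0514) and Rbbp4 (0.0579), and then L3mbtl2 (0.0510), Pcgf1 (0.0561) and Pcgf5 (0.0804) were lost in the 3 comparisons. In del DBD against MN1-TEL, scaling to the kept probes lost Bap1 (0.0658), Pcgf1 (0.158) and Pcgf5 (0.194), and Pcgf5 was lost with the authors' normalized values (0.0547) and the mean of its probes (0.0505). Leaving out single arrays gave 2 to 12 member calls in del DBD against MN1, where 9 were called, and 3 to 14 in del DBD against MN1-TEL, where 11 were. For single probes these ranges were 3 to 18 around 12 and 5 to 18 around 12. Scaling to the kept probes gave 14 member calls in del DBD against MN1, scaling to all probes 7 in del DBD against MN1-TEL, and a fit of only the 2 groups 5 in del DBD against MN1-TEL. By probe, del DBD against MN1 gave 5 calls with no detection filter and 20 with array weights, and del DBD against MN1-TEL gave 5 with only the 2 groups. Scaling to the median of all probes reversed called or uncalled members in MN1-TEL against MN1, to 0.44 for Ring1, 0.16 for Rnf2, 0.13 for Cbx6, 0.43 for Phc2, 0.31 for Pcgf1, 0.09 for Pcgf6, 0.58 for Kdm2b and 0.04 for Aebp2, and in del DBD against MN1, to 0.34 for Ring1, 0.04 for Rnf2, 0.43 for Cbx6 and 0.04 for Cbx8. The median of all genes moved up under that scaling, to 0.40 and 0.34. In 69 further cases an uncalled difference changed sign without a call.

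Same-numbered arrays of different groups had deviations that correlated at -0.157 to 0.184, within the range of -0.417 to 0.308 for other pairs. With 3 arrays per group, deviations from a group's mean depend on each other, so this check cannot decide whether the numbers pair the arrays. With the replicate number as a block, 17, 8 and 9 members were called in the 3 comparisons, and 20, 7 and 7 probes. The block ended the calls of Bmi1 in MN1-TEL against MN1 (adjusted p = 0.0711), Rbbp4 in del DBD against MN1 (0.0579), and Pcgf1 (0.0721) and Pcgf5 (0.0546) in del DBD against MN1-TEL. No slide block was run, because the file headers name no slide. Cbx2, Cbx7 and Phc3 were not detected on every array, so their differences are limited by background signal.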

Other observations

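Markers of the remaining cell types were counted in the same fits. Of 8 progenitor genes tested, 1 rose and 4 fell in MN1-TEL against MN1, and none rose and 6 fell in del DBD against MN1. In del DBD against MN1-TEL 4 rose and 2 fell. The shares called were 62.5%, 75% and 75%, beside 54.7%, 37.1% and 29.4% of all genes. Of 9 mast cell and basophil genes, 2 rose and 2 fell in the first comparison, and none rose and 5 fell in the second. In the third 2 rose and 5 fell. These are 44.4%, 55.6% and 77.8% of the 9. All 3 erythroid genes tested fell against MN1 in both other groups, and of 4 megakaryocyte genes 3 and 2 fell. The latter are 75% and 50%, where 54.7% and 37.1% of all genes were called. The B lymphoid list had 1 tested gene, Cd79b, which fell by 1.40 in MN1-TEL against MN1 and was 1.04 higher in del DBD than in MN1. The T and NK lymphoid list had 1, Nkg7, which rose by 0.91 and 1.52. Of 6 stroma and endothelium genes listed, Col1a1, Col1a2, Col3a1 and Cdh5 had no kept probe. The 2 tested were Pdgfrb and Pecam1. Neither passed in MN1-TEL against MN1, and both rose in del DBD against MN1 (limma adjusted p = 0.0094 and 0.0485). Pdgfrb was detected on 1 of 3 MN1 arrays.

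The windows of 250 bases before the starts of the Polycomb genes held a median of 20 CpG dinucleotides, with a range of 0 to 45, where the median over all windows was 6. The E2F-type letters TTCCCGC were found in 11.4% of member windows (Scmh1, Pcgf5, Suz12, Phf19 and Asxl1), in 3.82% of all windows and in 8.27% of those with at least 10 CpG. Of these genes Asxl1 and Pcgf5 passed in at least 1 comparison, in opposite directions between MN1-TEL and MN1. The AP-1 letters TGACTCA were found in 2.27% of member windows, that of Pcgf3, and in 4.46% of all windows. Among windows with at least 10 CpG the share was 2.21%. These counts describe letters only.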
